A study of Mus musculus with 6 samples.

Results

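RAB proteins are small GTPases that give each membrane compartment of a cell its identity. In the GTP-bound form a RAB sits on its membrane and recruits the tethers, motors and fusion factors that decide where a vesicle goes, and in the GDP-bound form it is extracted into the cytosol. RAB5 proteins act at early endosomes, RAB4 and RAB11 in recycling to the cell surface, RAB7 and RAB9 at late endosomes, RAB1, RAB2 and RAB6 between the endoplasmic reticulum (ER) and the Golgi, and RAB3, RAB8, RAB10 and RAB27 in exocytosis. In endothelial cells these routes carry, among other cargo, receptors such as FLK1.

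The family was taken up because *Rab5a* was among the genes selected on the difference between the stages in these same arrays, and the other members entered by their gene symbol alone. A member was any gene whose single annotation symbol was "Rab" followed by a number, with or without a further letter. By that rule 52 of 16523 genes were RABs, and they were read by 206 of the 77669 exon-level probe sets that had a single gene symbol. *Rab5a* is therefore described below and supports nothing. The tests of the other 51 were run in the contrast that brought the family forward and are given as description.

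The arrays were 6 Affymetrix Mouse Exon 1.0 ST arrays, 3 of cells from E7.5 embryos and 3 of cells from E8.5 embryos, and the comparison asks how endothelial progenitors of the 2 stages differ. ICR mothers were crossed to fathers of the ETV2::GFP line, a reporter in which GFP marks cells that transcribe *Etv2*, and no embryo received a treatment. All samples were sorted as GFP+FLK1+CD41-, with 50 cells per replicate, and the RNA was amplified before hybridisation. The study places the E7.5 cells in the extra-embryonic region and the E8.5 cells in the embryo proper, so that stage and site cannot be told apart. The study calls the samples of a stage biological triplicates. It is not given in the sources used here whether each was a litter of its own, and p-values reflect variation among these arrays alone.

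On a principal component analysis of all genes the first component (27.9% of the variance) separated the stages, and on the second (19.5%) E8.5 replicate 1 stood apart at 59.2, with the other E8.5 arrays at -33.6 and -28.9. *Etv2* averaged 11.8 at E7.5 and 11.3 at E8.5 on the log2 scale, *Kdr*, which encodes FLK1, 9.11 and 8.37, and *Itga2b*, which encodes CD41, 8.24 and 7.72. Of the marker lists, the mean of 4 epiblast and epithelial genes ranged from 7.53 to 8.05 at E7.5 and from 6.59 to 7.004 at E8.5, with log2 differences, E8.5 minus E7.5, of -2.05 and -1.91 for *Krt8* and *Krt18*, keratins of simple epithelia, and of -0.10 and -0.084 for the other 2 measured genes of that list. The mean of 5 primitive erythroid genes ranged from 6.75 to 7.09 at E7.5 and from 5.84 to 6.07 at E8.5. In that list the embryonic globin *Hbb-bh1* alone had a large log2 difference, of -4.87. The other measured genes of the list lay between -0.11 and 0.13, and each overlapped between the stages. The lists of 10 visceral endoderm genes, 8 cardiac genes, 3 megakaryocyte genes and 10 genes of the sorted population overlapped between the stages in their mean. Of the cardiac genes 3 were lower and 5 higher at E8.5. *Myl7*, an atrial myosin light chain, had a log2 difference of -2.55, with 10.70 in E7.5 replicate 2 and 10.63 in E8.5 replicate 2. Of the visceral endoderm genes 7 were lower and 3 higher, and 1 was lower without overlap, at -0.56. In the list of the sorted population 4 genes were lower and 6 higher at E8.5. An unadjusted p under 0.05 in limma was found for 2 of the 10, beside 7.8% of all genes. These were the endothelial genes *Emcn* at 2.58 and *Cd34* at 1.41, both higher at E8.5 with stages that did not overlap. The stages of *Cd34* nearly met, at 6.67 in E7.5 replicate 2 and 6.75 in E8.5 replicate 2. With the mean over probe sets *Emcn* was at 3.04 and *Cd34* at 0.90. The part of these other cells in the values below was not tested, and in bulk samples fewer cells of a type and less RNA per cell cannot be told apart.

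*Rab5a*, which drives the fusion of endocytic vesicles with early endosomes, was much lower at E8.5. Its single probe set read 7.79, 7.21 and 7.54 in E7.5 replicates 1 to 3, and 3.67, 3.73 and 3.84 in the E8.5 replicates, on the log2 scale. All E7.5 arrays lay far above all E8.5 arrays, and the replicates of each stage lay close together. The log2 difference, E8.5 minus E7.5, was -3.77 ± 0.21 (SE), a 13.6-fold lower summarised signal. The table carries no detection call, so it cannot be said if the E8.5 arrays were above background, and the size is not bounded. The adjusted p of 0.0219 from limma is the value by which *Rab5a* was picked, and it is not evidence of its own. It rose to 0.073 without E7.5 replicate 1, 0.098 without E7.5 replicate 3, 0.072 when E8.5 replicate 1 was left out and 0.116 when E8.5 replicate 2 was, while the log2 difference stayed between -3.92 and -3.63 with any 1 array left out. No second probe set of *Rab5a* was in the table against which this one could be read.

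**Figure D1:**
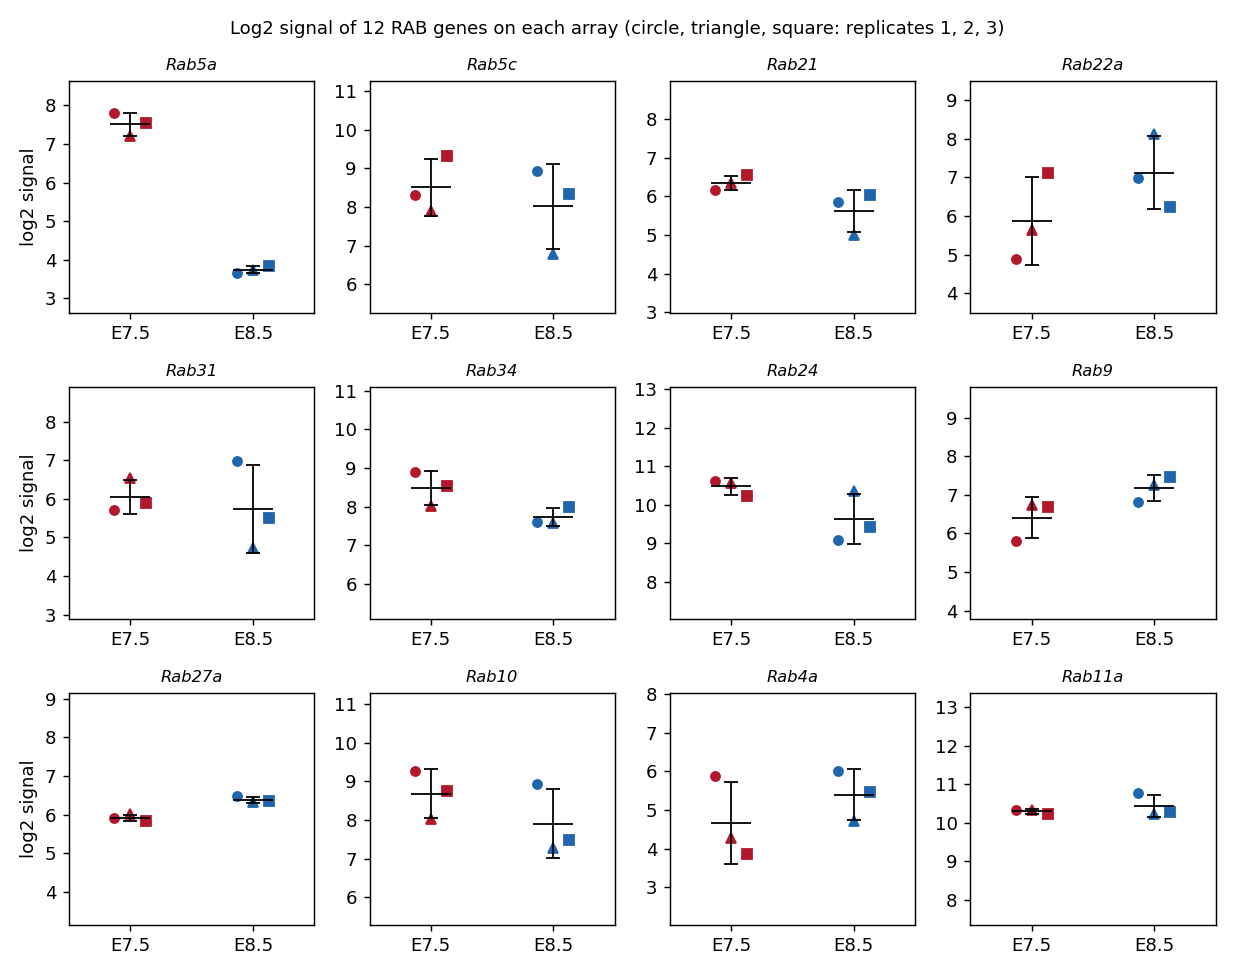
Log2 signal (y axis) of 12 RAB genes on the 3 E7.5 arrays (red) and the 3 E8.5 arrays (blue), with every panel spanning the same number of log2 units. Circles, triangles and squares are replicates 1, 2 and 3, long lines are the means and bars are ± 1 SD (n = 3). The E7.5 arrays of *Rab5a* lie between 7.21 and 7.79 and its E8.5 arrays between 3.67 and 3.84. The stages overlap for *Rab5c*, *Rab22a*, *Rab31*, *Rab24*, *Rab10*, *Rab4a* and *Rab11a*.

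To show the sequence around the start of *Rab5a* beside that of its paralog *Rab5c* and of *Rab24* and *Rab10*, which had 8 and 10 probe sets all lower at E8.5, the RefSeq promoter windows of GRCm38.p6 follow, each from 250 bases before to 50 bases after the start, 5′ to 3′ on the gene's strand. They lie at chr17:53478984-53479283 on the plus strand for *Rab5a*, and on the minus strand at chr11:100738166-100738465 for *Rab5c*, chr13:55321931-55322230 for *Rab24* and chr12:3309920-3310219 for *Rab10*. Capitals mark CACGTG (the E-box read by several basic helix-loop-helix factors) and TGACGTCA (the cyclic AMP response element), which are palindromes and so read the same on both strands.
Rab5a: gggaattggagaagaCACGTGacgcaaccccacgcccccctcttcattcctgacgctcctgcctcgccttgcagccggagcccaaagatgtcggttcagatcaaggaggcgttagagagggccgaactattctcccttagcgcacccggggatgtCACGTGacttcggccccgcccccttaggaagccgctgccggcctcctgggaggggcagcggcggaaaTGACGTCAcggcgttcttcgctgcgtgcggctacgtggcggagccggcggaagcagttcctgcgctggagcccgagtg
Rab5c: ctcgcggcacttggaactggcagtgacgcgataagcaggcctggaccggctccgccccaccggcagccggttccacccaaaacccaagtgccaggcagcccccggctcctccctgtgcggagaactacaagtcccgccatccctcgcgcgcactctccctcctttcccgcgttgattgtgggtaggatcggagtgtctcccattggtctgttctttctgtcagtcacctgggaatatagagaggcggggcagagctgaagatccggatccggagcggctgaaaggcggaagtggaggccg
Rab24: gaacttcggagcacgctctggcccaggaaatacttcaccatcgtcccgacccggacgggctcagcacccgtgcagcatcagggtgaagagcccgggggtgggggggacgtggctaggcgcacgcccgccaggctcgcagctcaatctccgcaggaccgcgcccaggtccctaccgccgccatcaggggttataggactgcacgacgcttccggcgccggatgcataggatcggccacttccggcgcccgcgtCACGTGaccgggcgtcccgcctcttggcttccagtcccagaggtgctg
Rab10: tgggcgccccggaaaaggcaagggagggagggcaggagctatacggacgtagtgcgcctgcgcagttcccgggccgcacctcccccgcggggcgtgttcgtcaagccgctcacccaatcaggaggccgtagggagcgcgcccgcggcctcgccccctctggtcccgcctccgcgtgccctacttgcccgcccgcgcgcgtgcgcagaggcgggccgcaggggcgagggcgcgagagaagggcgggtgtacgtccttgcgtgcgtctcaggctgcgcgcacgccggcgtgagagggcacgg
The *Rab5a* window held CACGTG at bases 16 and 156 and TGACGTCA at base 223, counted from 1 at the 5′ end of the window. The *Rab24* window held CACGTG once, at base 253, and the windows of *Rab5c* and *Rab10* held neither motif. *Rab34*, also with every probe set lower, had 2 windows, which held neither motif and are not printed.

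Of the 51 RABs matched to RefSeq, 42 had at least 1 window, 52 windows in all. CACGTG was found in 6 of these windows (11.5%), against 7.15% of all 32851 windows of the same length. The 6 belonged to *Rab5a*, *Rab21*, *Rab24*, *Rab20*, *Rab23* and *Rab27a*, of which the first 3 were lower and the last 3 higher at E8.5 in their mean. *Rab23* and *Rab27a* each had another window without it. The sign of *Rab21* and that of *Rab20* turned in 1 alternative each. TGACGTCA was found in 2 (3.85%, against 1.79% of all windows), those of *Rab5a* and *Rab25*. Searched on both strands, the GC box GGGCGG was in 67.3% of RAB windows and 35.7% of all, the CCAAT box in 42.3% and 37.4%, and TATAAA in 3.85% and 13.6%. These matches describe the letters of the windows and say nothing of which factor is bound there.

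Across the family, 1 of 52 genes passed an adjusted p of 0.05, against 0.109% of all genes (18 of 16523), and that 1 was *Rab5a*. An unadjusted p under 0.05 in limma was reached by 3 RABs, *Rab5a* and *Rab34* lower and *Rab27a* higher at E8.5, against 7.8% of all genes. More than 2-fold higher at E7.5 was 1 RAB, *Rab5a*, against 4.79% of all genes, and 2 RABs, *Rab22a* and *Rab39*, exceeded that fold in favour of E8.5, against 2.72%. Neither did so without E8.5 replicate 2, where *Rab22a* was at 0.75 and *Rab39* at 0.47 and 2 other RABs passed the fold. The count higher at E7.5 became 3 when either E7.5 replicate 1 or E8.5 replicate 1 was left out, and 2 without E7.5 replicate 2 or E8.5 replicate 2. The count under an unadjusted p of 0.05 became 5 without E8.5 replicate 1 or E8.5 replicate 3, and the count past the adjusted threshold 0 without each of the 4 arrays named with *Rab5a*. The 3 arrays of each stage did not overlap for 4 RABs that were higher at E7.5 (*Rab5a*, *Rab21*, *Rab34* and *Rab19*), against 7.12% of all genes, and for 4 that were higher at E8.5 (*Rab39*, *Rab27a*, *Rab9* and *Rab23*), against 7.1%. Since the contrast brought the family forward, nothing is read from these shares, nor from the counts with an array left out.

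In direction 20 were lower and 32 higher at E8.5, with a median log2 difference of 0.10, and 8185 and 8338 with a median of 0.0035 over all genes. The difference was within 1.5-fold for 39 of the 52, against 81.3% of all genes. For 27 the 95% confidence interval from limma lay within a 2-fold change either way, as for 55.1% of all genes. For the other 25 it reached beyond 2-fold in at least 1 direction, and for *Rab5a* it lay wholly beyond, from -4.27 to -3.27. The SD between replicates of a stage had a median of 0.41 over the RABs and 0.34 over all genes, and ran from 0.071 to 1.30 among the RABs. Without E7.5 replicate 1 the median difference was -0.041, so that its sign rests on that array.

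**Figure D2:**
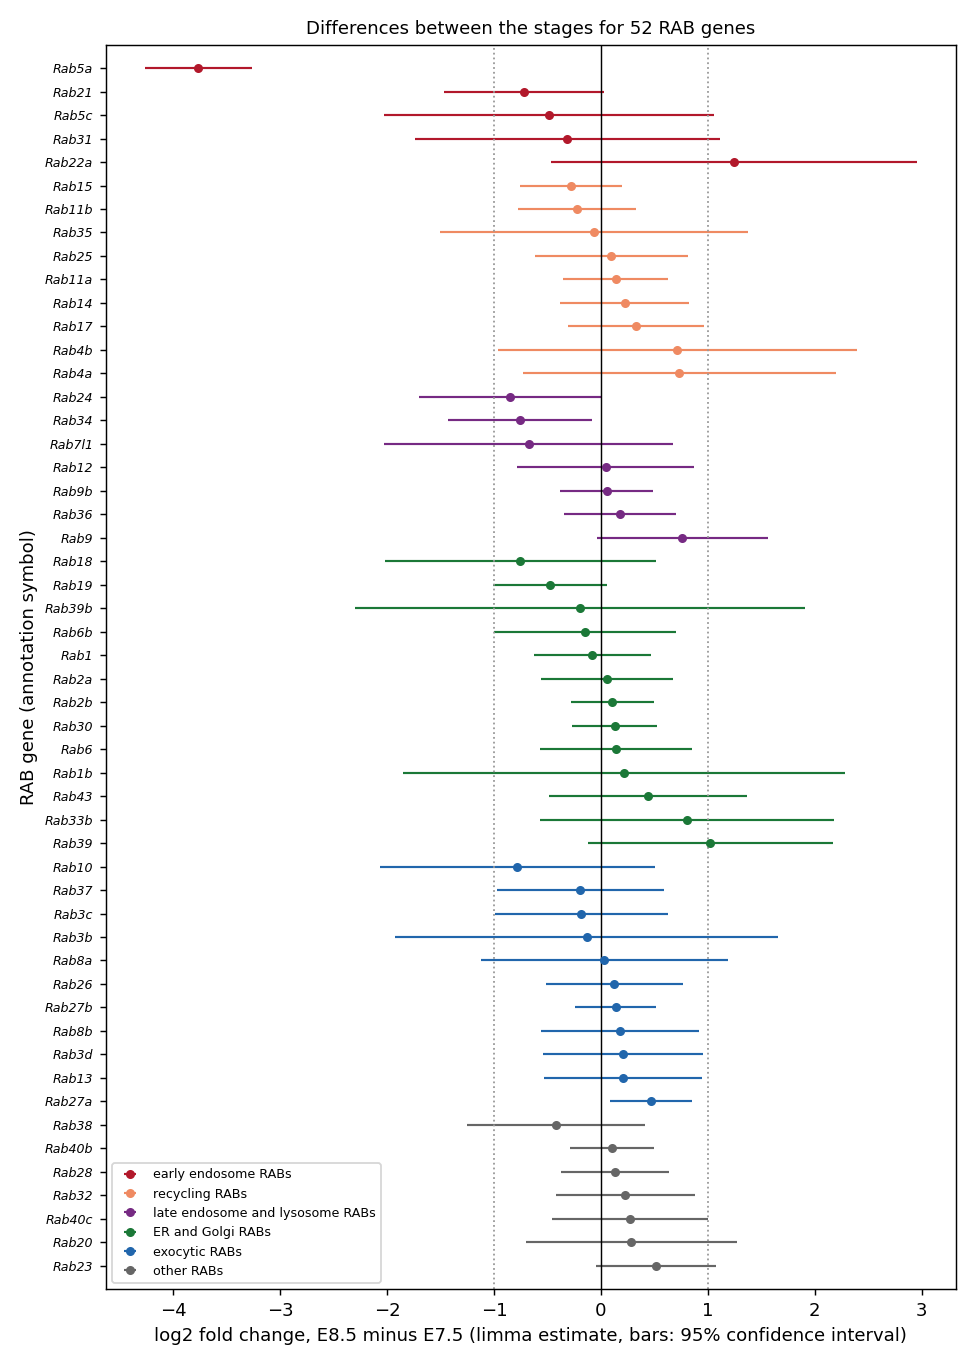
Log2 difference, E8.5 minus E7.5, from limma for each of the 52 RAB genes (x axis), grouped and coloured by role, with the gene symbols on the y axis. Points are estimates, bars are 95% confidence intervals and dotted lines mark a 2-fold change. *Rab5a* at -3.77 lies apart, and the other 51 lie between -0.85 and 1.25.

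The early endosome RABs, 5 genes measured, had a median log2 difference of -0.49, and 4 of the 5 were lower at E8.5. Both figures count *Rab5a*, which was picked on this contrast, so nothing is read from them. Apart from it, *Rab21* (-0.72), *Rab5c* (-0.49) and *Rab31* (-0.31) were lower and *Rab22a* (1.25) was higher. *Rab5c*, which shares the early endosome function of *Rab5a*, read 8.32, 7.89 and 9.31 at E7.5 and 8.93, 6.79 and 8.33 at E8.5, a log2 difference of -0.49 ± 0.63 (SE, adjusted p = 0.883 from limma). Its stages overlapped, and the lowest array was E8.5 replicate 2, without which the difference was 0.13. Of its 10 probe sets 7 were lower and 3 higher at E8.5, with log2 differences from -1.22 to 0.42, and the brightest gave 0.32. The difference between *Rab5a* and *Rab5c* was not tested, and *Rab5b* was not analysed here.

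*Rab21*, which follows integrins through early endosomes, read 6.16, 6.34 and 6.54 at E7.5 and 5.85, 5.00 and 6.03 at E8.5. The stages did not overlap, by a narrow gap, and the log2 difference was -0.72 ± 0.31 (SE, adjusted p = 0.666 from limma). Of its 3 probe sets 2 were lower, and the brightest gave 0.053. *Rab22a*, which acts between early endosomes and recycling, read 4.88, 5.63 and 7.11 at E7.5 and 6.99, 8.12 and 6.24 at E8.5. Its difference of 1.25 ± 0.70 (SE, adjusted p = 0.731 from limma) was the highest among the RABs on the median of probe sets, but it was 0.66 with their mean and 0.40 with the brightest, below the 1.02 of *Rab39*, and it ran from 0.75 to 1.86 with 1 array left out. Each of its 3 probe sets was higher at E8.5. The stages overlapped, with E7.5 replicate 3 among the E8.5 arrays. *Rab31*, its close relative in traffic between the Golgi and endosomes, read 5.72, 6.55 and 5.88 at E7.5 and 6.98, 4.73 and 5.50 at E8.5. E8.5 replicate 1 was the highest and E8.5 replicate 2 the lowest of the 6 arrays, and the difference of -0.31 ± 0.59 (SE, adjusted p = 0.925 from limma) became 0.19 without E8.5 replicate 2. The median of the list itself became 0.13 without that array and 0.053 with the brightest probe set of each gene, with *Rab5a* counted in each.

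None of the 9 recycling RABs passed either threshold or had stages that did not overlap, and their median log2 difference was 0.14. *Rab11a*, the main RAB of the recycling endosome, read 10.33, 10.33 and 10.23 at E7.5 and 10.76, 10.24 and 10.29 at E8.5. The arrays lay close together except for E8.5 replicate 1, and the log2 difference of 0.14 had a 95% interval from -0.36 to 0.63. *Rab11b*, its paralog, differed by -0.22, and *Rab25*, the epithelial member of the same subfamily, by 0.098. *Rab4a*, of the rapid recycling route, read 5.88, 4.26 and 3.86 at E7.5 and 6.02, 4.72 and 5.46 at E8.5. Both replicates 1 of *Rab4a* were high and the stages overlapped, and the difference was 0.73 ± 0.60 (SE, adjusted p = 0.801 from limma). *Rab4b* had a like estimate of 0.71 ± 0.69 (SE), with E7.5 replicate 1 at 6.64 and E7.5 replicate 3 at 9.27. *Rab14*, of traffic between the Golgi and endosomes, differed by 0.22, *Rab15*, an endosomal RAB, by -0.28, *Rab17*, of epithelial recycling, by 0.33, and *Rab35*, of rapid recycling and cytokinesis, by -0.066, with intervals that all included 0.

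The late endosome and lysosome RABs, 7 genes measured, spread on both sides of 0, with 3 lower, 4 higher and a median of 0.044, which became -0.31 among genes above the median signal and -0.36 among genes with at least 3 probe sets. *Rab34*, which acts in the positioning of lysosomes and in building the primary cilium, read 8.89, 8.00 and 8.53 at E7.5 and 7.61, 7.56 and 7.99 at E8.5. The stages did not overlap, although E7.5 replicate 2 and E8.5 replicate 3 nearly met. The log2 difference was -0.76 ± 0.28 (SE, adjusted p = 0.578 from limma), and it remained negative in each of the alternatives in which it had a value. At E8.5 every one of its 10 probe sets was lower, with log2 differences from -1.51 to -0.48. The stages did not overlap for 4 of them, beside 5693 of all 77669 probe sets that were higher at E7.5 without overlap. The 10 were read from the same samples, so nothing is read from that count.

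*Rab24*, linked to autophagy, read 10.62, 10.57 and 10.23 at E7.5 and 9.10, 10.36 and 9.42 at E8.5. E8.5 replicate 2 lay among the E7.5 arrays and the other E8.5 arrays lay below them, for a difference of -0.85 ± 0.35 (SE, adjusted p = 0.645 from limma). Each of its 8 probe sets was lower at E8.5. *Rab9*, which returns mannose 6-phosphate receptors from late endosomes to the Golgi, was higher at E8.5 in its mean, with 5.80, 6.74 and 6.69 at E7.5 and 6.81, 7.24 and 7.47 at E8.5. Its stages did not overlap, by a narrow gap, on 1 probe set, and the difference was 0.76 ± 0.33 (SE, adjusted p = 0.666 from limma). Its paralog *Rab9b* differed by 0.053, with a 95% interval from -0.38 to 0.49. *Rab7l1*, now named *Rab29* and known at the Golgi and lysosomes, differed by -0.67, with E7.5 replicate 3 at 9.44 and a difference of -0.025 without it, *Rab36*, a close relative of *Rab34*, by 0.18, and *Rab12*, which directs transferrin receptor to lysosomes, by 0.044. *Rab7*, which defines late endosomes, was not analysed here.

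The 13 RABs of the ER and Golgi had a median log2 difference of 0.11, with 5 lower and 8 higher at E8.5. *Rab1*, the gene now named *Rab1a* and a RAB of transport from the ER to the Golgi, differed by -0.081, *Rab2a*, of the return path, by 0.060, and *Rab6*, now *Rab6a*, of traffic within the Golgi, by 0.14. Their 95% intervals lay within a 2-fold change. *Rab39* read 5.78, 5.69 and 5.57 at E7.5 and 6.13, 7.81 and 6.17 at E8.5, on 1 probe set. The stages did not overlap, and E8.5 replicate 2 stood far above the rest, for a difference of 1.02 ± 0.47 (SE, adjusted p = 0.687 from limma). *Rab39b*, its paralog, ran from 5.29 to 8.26 with no order between the stages, for a difference of -0.20 ± 0.86 (SE). *Rab19* read 5.86, 6.05 and 5.85 at E7.5 and 5.29, 5.82 and 5.23 at E8.5. Its stages did not overlap, by a gap smaller than the spread within E8.5, and the difference was -0.47 ± 0.22 (SE, adjusted p = 0.687 from limma). *Rab18*, found on lipid droplets and the ER, differed by -0.75, with E8.5 replicate 3 lowest at 5.41, and *Rab33b*, of the Golgi and autophagy, by 0.80, with E8.5 replicate 1 at 8.72 and the other 5 arrays between 6.31 and 6.79.

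The 11 exocytic RABs had a median log2 difference of 0.13, with 4 lower and 7 higher at E8.5, and 8 of the 11 intervals lay within a 2-fold change. *Rab27a*, which docks secretory vesicles and lysosome-related organelles at the plasma membrane, read 5.90, 6.00 and 5.84 at E7.5 and 6.47, 6.32 and 6.36 at E8.5. The replicates of each stage lay close together and the stages did not overlap, for a difference of 0.47 ± 0.16 (SE, adjusted p = 0.548 from limma). Of its 4 probe sets 3 were higher at E8.5, and the brightest gave 0.0088. *Rab27b*, its paralog, differed by 0.14, with a 95% interval from -0.24 to 0.52. *Rab10*, which delivers the glucose transporter GLUT4 and basolateral cargo to the cell surface, read 9.27, 8.02 and 8.76 at E7.5 and 8.93, 7.29 and 7.49 at E8.5. All 10 of its probe sets were lower at E8.5, but E8.5 replicate 1 lay among the E7.5 arrays, and the difference was -0.78 ± 0.53 (SE, adjusted p = 0.760 from limma). *Rab13*, of tight junctions, differed by 0.21 as a gene, while 7 of its 9 probe sets were higher at E8.5, with a median over probe sets of 0.71 and a range from -0.25 to 1.58. The gene value takes the median on each array first, so that the 2 medians need not be equal. *Rab8a*, of traffic to the cilium and the apical surface, differed by 0.031 (95% interval from -1.12 to 1.19), with 7 of its 11 probe sets higher.

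The other 7 RABs all differed by less than 1.5-fold. *Rab23*, an inhibitor of Hedgehog signalling, read 3.37, 3.51 and 3.20 at E7.5 and 4.27, 3.70 and 3.66 at E8.5, a difference of 0.52 ± 0.23 (SE, adjusted p = 0.680 from limma). The stages did not overlap, and E8.5 replicate 1 was the highest array. Of its 2 probe sets 1 differed by 0.11 with stages that overlapped, and the other by 0.92 without overlap. These signals were low, and without a detection call it cannot be said if they were above background. Of the 7, 6 were higher and 1 lower at E8.5 in their mean.

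**Figure D3:**
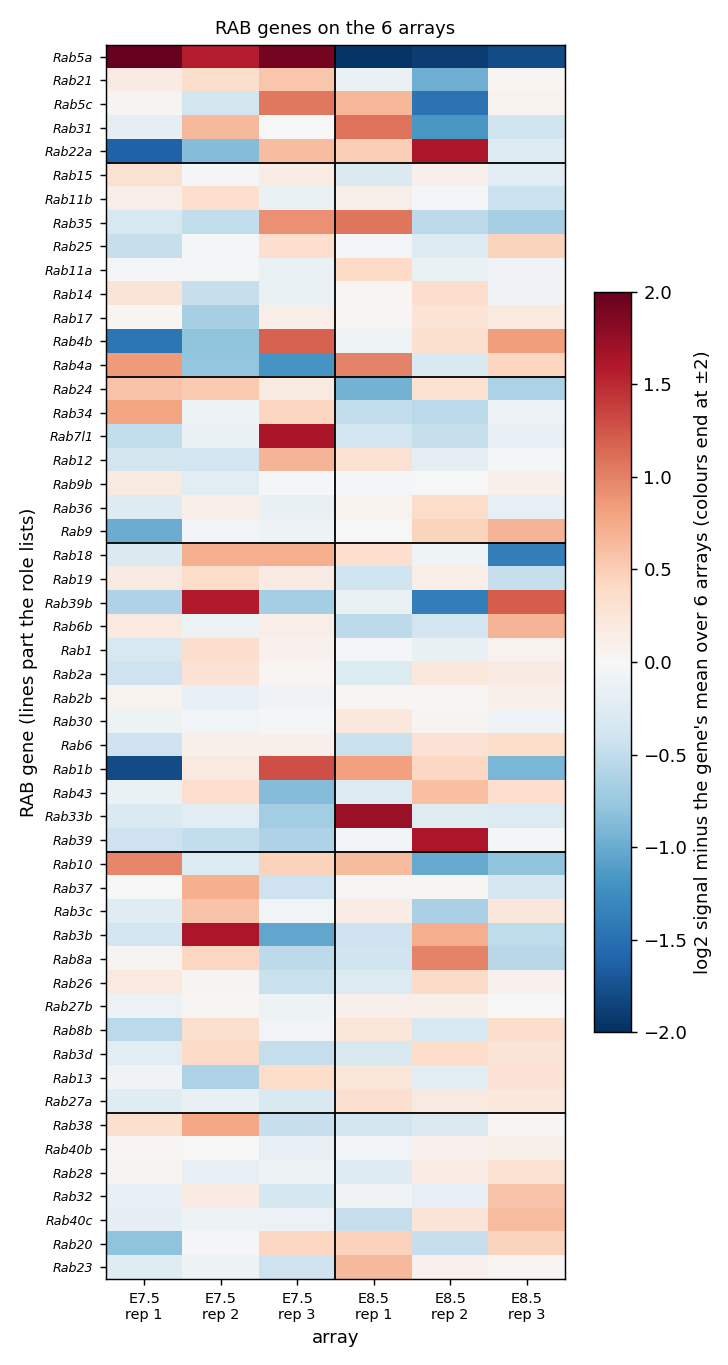
Log2 signal of each of the 52 RAB genes (y axis, in the order of the role lists) on each of the 6 arrays (x axis), with the gene's mean over the arrays subtracted. Colours end at ±2, the vertical line parts E7.5 from E8.5 and horizontal lines part the role lists. *Rab5a* is the only row in which the stages differ strongly throughout, and in *Rab22a*, *Rab1b* or *Rab39b* the arrays of 1 stage differ as much from each other.

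Among the 45 RABs with 2 or more probe sets, 27 had some on each side of 0. Of the 206, 94 were lower and 112 higher at E8.5, and 39819 and 37850 of all 77669. The 1 RAB probe set that passed an adjusted p of 0.05 was that of *Rab5a* (adjusted p = 0.0189 from limma), against 0.0824% of all probe sets, and it did not pass with any 1 array left out. An unadjusted p under 0.05 was found for 12, 6 in each direction, against 6.99% of all. Of the 32 RABs with at least 3 probe sets, 9 had all of them in 1 direction. The longest such runs were *Rab34*, *Rab10* and *Rab24*, all lower at E8.5. Agreement in direction was not counted over all genes, so it cannot be said if these counts are particular to RABs. Probe sets of 1 gene were read from the same 6 amplified samples and are not replicates of the stage. The remaining RABs with 8 or more probe sets, *Rab1*, *Rab1b*, *Rab5c*, *Rab8a*, *Rab11a*, *Rab13* and *Rab14*, had some on each side of 0.

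**Figure D4:**
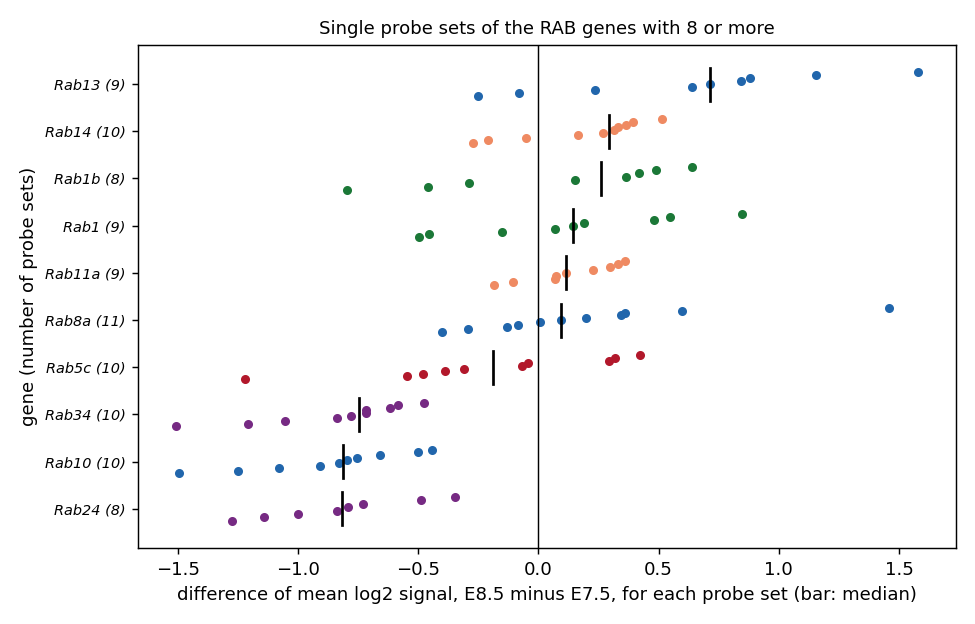
Difference of mean log2 signal, E8.5 minus E7.5 (x axis), of every probe set of the 10 RAB genes that have 8 or more, with the number of probe sets beside each symbol (y axis). Each point is 1 probe set, coloured by role, and the black bar is the median over the gene's probe sets. All points of *Rab34*, *Rab10* and *Rab24* lie below 0, and those of the other 7 genes lie on both sides.

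The genes that load, activate or read RABs were followed through 5 lists of 54 measured genes, chosen for their roles. None passed an adjusted p of 0.05, 6 had an unadjusted p under 0.05 in limma (4 lower and 2 higher at E8.5), beside 7.8% of all genes, and 27 were lower and 27 higher. Of the 5 genes of the RAB membrane cycle, *Gdi2*, the GDP dissociation inhibitor that extracts RABs from membranes, read 9.24, 9.13 and 9.96 at E7.5 and 8.87, 8.54 and 8.13 at E8.5. The stages did not overlap, and the log2 difference was -0.93 ± 0.31 (SE, adjusted p = 0.545 from limma). *Rabac1*, a receptor for prenylated RABs, differed by 0.78, with the lowest array E7.5 replicate 1.

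Of 16 activators, inhibitors and effectors of RAB5, 1 had an unadjusted p under 0.05 in limma, beside 7.8% of all genes. This was *Rin2*, an exchange factor that activates RAB5, with 4.71, 4.44 and 4.74 at E7.5 and 5.51, 5.33 and 6.45 at E8.5. All E8.5 arrays lay above the E7.5 arrays, opposite in direction to *Rab5a*, for a difference of 1.13 ± 0.33 (SE, adjusted p = 0.465 from limma), which was 0.42 with the brightest probe set. *Eea1*, the tether that RAB5 recruits to early endosomes, read 7.27, 8.70 and 7.75 at E7.5 and 5.36, 8.69 and 4.91 at E8.5. E8.5 replicates 1 and 3 were low and E8.5 replicate 2 was as high as the highest E7.5 array, and the difference was -1.59 ± 1.03 (SE, adjusted p = 0.753 from limma), which turned to 1.11 with the brightest probe set and was -2.77 without E8.5 replicate 2. *Rabep2*, which binds RAB5 and RAB4, differed by 0.43.

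Of the other lists, none of 10 recycling effectors had an unadjusted p under 0.05, and the 2 with the smallest p were *Rab11fip4*, a RAB11 effector, at -0.42 and *Rufy1*, an effector of RAB4 and RAB14, at 1.59, the latter with E8.5 replicate 1 at 6.73 and a difference of 0.61 without it. Of 11 late endosome genes, *Vps11*, a core subunit of the tethers of endosomes and lysosomes, was below that limit at -0.43 (-0.031 with the brightest probe set), and *Rilp*, which links RAB7 to dynein, was at -0.50. Of 12 secretory genes 3 were below it, beside 7.8% of all genes. *Rab3ip* and *Rab3il1*, the exchange factors that activate RAB8, were at -1.21 ± 0.31 (SE, adjusted p = 0.389 from limma) and -1.33 ± 0.50 (SE, adjusted p = 0.588 from limma), and *Sytl4*, an effector of RAB27, at 0.46. With the brightest probe set *Rab3il1* was at 0.021 and *Sytl4* at -0.060. *Rab3ip* read 8.29, 8.52 and 9.02 at E7.5 and 7.13, 7.17 and 7.91 at E8.5, and did not overlap between the stages, whereas *Rab8a*, a GTPase it activates, differed by 0.031.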

How the data were processed

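Cells of 2 stages were compared on 6 exon arrays, 3 for each stage, with groups taken from the stage in the sample labels. The authors deposited log2 signals of 90788 probe sets, which the submitters' processing notes tie to RMA and Affymetrix Power Tools. RMA equalises the distributions of the arrays, which hides a change in total RNA per cell, and compresses the differences of dim probe sets. Amplification from 50 cells adds random loss of transcripts to the spread between replicates. The rule by which probe sets were kept is not given in the sources used here.

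Probe sets were named through the array's annotation, leaving out 654 with several symbols and 12465 with no symbol listed. The value of a gene on an array was the median over its probe sets. Differences, E8.5 minus E7.5, were fitted on all genes and on all single-symbol probe sets with lmFit and eBayes of limma 3.58.1 in R 4.3.3, with no covariate and Benjamini-Hochberg adjustment over the whole table, and were tested on simulated data. An exact permutation test of 3 against 3 arrays cannot go below a p of 0.1. The number of arrays limits the precision. Levels were compared within a gene only.

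The members, the role lists, the partner lists and the marker lists were chosen with earlier results of these data known. Values were given for all early endosome RABs, RABs with an unadjusted p under 0.05, up to 4 RABs per other list whose stages did not overlap and their paralogs, the 2 partners per list with the smallest p, and the genes of the sort. The other genes with values (the remaining RABs, *Eea1*, *Sytl4*, *Krt8*, *Krt18*, *Emcn*, *Cd34*, *Hbb-bh1* and *Myl7*) were named after their values were seen. *Rab5b*, *Rab7*, *Rab7b*, *Rab33a*, *Rab3a*, *Rab42* and *Rab44* were not analysed here. Promoter windows came from RefSeq, GRCm38.p6, and probe set positions were not used. Alternatives were array medians subtracted, a second quantile normalisation, a filter on dim genes, the mean or brightest probe set, at least 3 probe sets, a trended robust prior, the replicate number as a block, a plain test per gene, a 1.5-fold threshold and leaving out each array.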

Additional observations from a re-analysis of the deposited data

How the results depend on the processing

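Over the alternatives in which each had a value, 12 to 14 per gene, the sign of 25 of the 52 RAB genes stayed the same and that of 27 turned at least once, and *Rab5a* was the 1 RAB to pass an adjusted p of 0.05 in any of them. *Rab5a* passed in 7 of the 12 limma settings in which it had a value, with an adjusted p from 0.0089 to 0.221 in limma. The plain test per gene, in which it did not pass, is not among these settings. *Rab34*, *Rab24* and *Rab10* kept their sign throughout. The number of arrays and the compression of dim signals by RMA limit what could be seen, and no signal over background was given.

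With array medians subtracted, 5 RABs had an unadjusted p under 0.05. With a second quantile normalisation *Rab1* turned to 0.026. Among genes above the median signal, 0 RABs and 0 genes in all passed the adjusted threshold, 1 RAB (against 3) had an unadjusted p under 0.05 in limma, 0 RABs were more than 2-fold higher at either stage, 0 RAB probe sets passed, and the late endosome median was -0.31, where fewer genes were tested and *Rab5a* was not among them. With the mean over probe sets 11 genes passed, 1 RAB was more than 2-fold higher at E8.5, and *Rab11fip4*, *Rab1* and *Rab35* turned to 0.18, 0.13 and 0.063. With the brightest probe set 9 genes passed, 6 RABs had an unadjusted p under 0.05, 1 RAB was more than 2-fold higher at E8.5, and signs turned for *Rab21* (0.053), *Rab5c* (0.32), *Rab27b* (-0.087), *Rab11fip4* (0.059), *Rab3il1* (0.021), *Kdr* (0.078), *Itga2b* (0.69), *Rab1* (0.069), *Rab15* (0.052), *Rab17* (-0.013), *Rab35* (0.46), *Eea1* (1.11) and *Sytl4* (-0.060). With at least 3 probe sets per gene, which leaves out *Rab5a*, 0 RABs passed, 0 were more than 2-fold higher at E7.5 and 1 at E8.5, and the late endosome median was -0.36. A plain unmoderated test per gene gave 0 RABs and 0 genes past the adjusted threshold, and 2 RABs with an unadjusted p under 0.05. At 1.5-fold, 7 RABs were higher at E7.5 and 6 at E8.5, beside 11.6% and 7.2% of all genes. Except where fewer genes were tested, the cause of these changes was not tested. The shares of all genes with an unadjusted p under 0.05 or over 2-fold are given for the main fit only. Nothing is therefore read from such counts of RABs in any alternative.

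With the replicate number as a block, 0 RABs, 0 genes and 0 RAB probe sets passed in limma, 4 RABs had an unadjusted p under 0.05, and the adjusted p of *Rab5a* was 0.221. Arrays of the same number correlated in their deviations from the stage mean at 0.0074, -0.0083 and -0.00082. These correlations cannot tell whether arrays of the same number were prepared or hybridised together, which was not tested.

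With each array left out in turn, 0 to 1 RABs, 0 to 12 genes and 0 RAB probe sets passed (for 0 RABs, 2 to 5 had an unadjusted p under 0.05 in limma), 1 to 3 RABs were more than 2-fold higher at E7.5, and the median difference ran from -0.041 to 0.12 over the RABs and from -0.090 to 0.22 over those of the ER and Golgi. The range was -3.92 to -3.63 for *Rab5a* and -5.14 to -4.39 for *Hbb-bh1*, which, like the block (adjusted p = 0.309 from limma) and the brightest probe set (-3.53), left *Hbb-bh1* outside the threshold. It included 0 for *Rab5c* (-0.95 to 0.13), *Rab31* (-0.93 to 0.19), *Rab39b* (-0.86 to 0.55), *Rab9b* (-0.044 to 0.16), *Rab13* (-0.048 to 0.44), *Rab11a* (-0.031 to 0.23), *Rab1* (-0.26 to 0.077), *Rab2a* (-0.13 to 0.22), *Rab8a* (-0.46 to 0.31), *Rab25* (-0.11 to 0.29), *Rab35* (-0.62 to 0.37), *Rab6* (-0.032 to 0.40), and *Rab12* (-0.13 to 0.40).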
